A study of Homo sapiens with 2 samples.

Results

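Intronic GATA peaks are the LDB1-bound regions analysed here, those that lie inside protein-coding genes away from any transcription start site (TSS), hold a GATA site and lack the composite element. They were chosen by position and sequence. The midpoint of the peak had to lie more than 1000 bp from every annotated TSS, inside a protein-coding gene and outside every annotated exon. The 200 bp around it had to hold WGATAR on either strand (W stands for A or T and R for A or G) but not CTG followed by WGATAR after 7 or 8 bases. Of 11046 deposited LDB1 peaks, 1556 met the rule, which is 14.1% (95% interval 13.5 to 14.7%). No measured height entered the rule. The median length of these peaks was 470.5 bp, and sequence outside the 200 bp window was not searched. A composite or another motif may therefore lie elsewhere in the same peak, and the groups below are defined by this window alone.

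CUT&Tag uses an antibody to bring a transposase to a protein on chromatin, so that the DNA nearby is cut and tagged for sequencing. It was done on NB4, a human acute promyelocytic leukemia line, with 2 libraries. One had an LDB1 antibody and, per the labels, LDB1 overexpression, and the other had IgG and untreated cells, so that antibody and treatment differ together. There were no replicates, the deposited LDB1 peaks give where each peak begins and ends but not how high it is, and depth is unknown. IgG peaks were not analysed here, and neither the overexpression nor the cell line could be checked, since no expression values were used. Whether a peak stood for all cells or for a share of them cannot be told apart. Each interval below is a 95% interval, covers counting error within this single library and treats peaks as independent, and no p-value was computed.

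LDB1 does not bind DNA. It joins LMO2, which in turn bridges GATA factors and basic helix-loop-helix factors such as TAL1. In red cell precursors this complex is known for a composite element, in which the remainder of an E-box (CTG) stands a fixed short distance before a GATA site. GATA sites also stand alone in enhancers, many of them in introns, where GATA factors act with RUNX, ETS, KLF and AP-1 factors in blood cells.

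The windows of 5 peaks are shown as examples, chosen by peak length within gene lists. They are the longest peaks at genes of the LDB1 complex (ZFPM1), red cells (RHCE), platelets (TBXAS1), stem cell factors (RUNX1) and mast cells (IL1RL1). ZFPM1 and RHCE also hold the longest pair of all. Each is the 200 bp around the midpoint on the plus strand of hg38, and capitals mark WGATAR or, for a site on the minus strand, its reverse complement.
ZFPM1 window, chr16:88498656-88498855: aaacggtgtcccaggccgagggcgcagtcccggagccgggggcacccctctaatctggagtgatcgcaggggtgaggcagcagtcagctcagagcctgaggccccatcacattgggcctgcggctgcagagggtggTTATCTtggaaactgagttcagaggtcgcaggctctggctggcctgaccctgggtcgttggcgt
RHCE window, chr1:25413258-25413457: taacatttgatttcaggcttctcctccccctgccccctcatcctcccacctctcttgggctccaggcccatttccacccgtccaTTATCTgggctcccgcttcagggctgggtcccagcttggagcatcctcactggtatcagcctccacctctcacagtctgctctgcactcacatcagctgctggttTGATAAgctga
TBXAS1 window, chr7:139916170-139916369: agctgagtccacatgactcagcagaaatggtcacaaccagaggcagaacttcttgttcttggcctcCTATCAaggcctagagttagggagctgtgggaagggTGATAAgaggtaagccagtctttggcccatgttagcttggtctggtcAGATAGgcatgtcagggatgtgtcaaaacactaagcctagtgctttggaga
RUNX1 window, chr21:34909222-34909421: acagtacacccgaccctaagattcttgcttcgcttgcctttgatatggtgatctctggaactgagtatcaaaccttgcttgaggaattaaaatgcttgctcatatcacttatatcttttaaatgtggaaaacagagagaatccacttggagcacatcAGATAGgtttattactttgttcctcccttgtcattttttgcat
IL1RL1 window, chr2:102335962-102336161: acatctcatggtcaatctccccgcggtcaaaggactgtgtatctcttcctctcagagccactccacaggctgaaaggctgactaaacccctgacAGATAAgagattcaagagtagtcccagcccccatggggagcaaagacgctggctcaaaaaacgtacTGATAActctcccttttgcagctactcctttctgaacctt

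The sites differed in number and strand. ZFPM1 had 1 site on the minus strand, RUNX1 had 1 on the plus strand, IL1RL1 had 2 on the plus strand, RHCE had 2 on opposite strands, and TBXAS1 had 3.

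To see where the group comes from, the peaks were divided step by step. Of the 11046 peaks, 8906 lay over 1000 bp from any TSS and 4085 of these lay in an intron of a protein-coding gene outside every exon. A GATA site was found in 2028 of the 4085 (49.6%, 48.1 to 51.2%). The composite was present in 472 of them, which left 1556 intronic GATA peaks, or 38.1% (36.6 to 39.6%) of the distal intronic peaks. Windows 1000 bp to either side of the distal intronic peaks served as background where they met the same location rule and overlapped no peak, which held for 6562 of 8170. Of these flank windows 29.1% (28.1 to 30.2%) had a GATA site, and 1830 had one without the composite. The intronic GATA peaks were compared with these 1830 windows, with the 2057 distal intronic peaks without a GATA site, with the 472 intronic composite peaks, and with 1229 peaks that had a GATA site and no composite in intergenic sequence. Since the flank windows had to meet the same sequence rule, the presence of the GATA site itself is not compared.

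The distance limit divided peaks at similar distances from a TSS. Just inside it were peaks in NCOA7, KSR1 and ZNF850, at 1017, 1021 and 1027 bp from a TSS. Just outside were peaks in UROS, FADD and FANCD2OS, at 986, 983 and 979 bp.

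The GATA sites of the intronic GATA peaks differed from those of the flanks in the base that follows the site. A site followed by G was present in 800 of 1556 windows (51.4%, 48.9 to 53.9%) and in 26.6% of the flank windows (24.6 to 28.7%). The difference was 24.8 points (21.6 to 28.0). With the flanks weighted to the GC content of the peaks it was 19.2 points (15.1 to 23.3). The GATA motif is usually written with a G at this place, so these sites were closer to the full motif. Composite peaks had it in 53.6% (difference -2.19 points, -7.29 to 2.96) and intergenic GATA peaks in 46.8% (difference 4.63 points, 0.889 to 8.35). Of the 11 features compared between intronic and intergenic GATA peaks, this was the single one whose interval excluded 0, with no adjustment over the 11.

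Windows with exactly 1 site allow the neighbouring bases to be read without choosing among sites. In 1021 such peak windows and 1350 such flank windows the site lay at least 4 bases from the edge. The base after the site was G in 43.9% of the peak windows and 23.2% of the flank windows, a difference of 20.7 points (16.9 to 24.4). It was T in 13.5% and 26.1%, a difference of -12.6 points (-15.7 to -9.44). The base before the site was C in 36.5% and 23.5%, a difference of 13.1 points (9.33 to 16.8), and A in 20.7% and 30.8%. Peak windows thus had more C before and more G after the site than flank windows. Peak windows had a median of 49.0% G and C, compared with 40.5% in the flank windows, and at other places within 4 bases of the site the largest differences for C or G were 6.43 points for C 2 bases after it and 8.06 points for G 4 bases after it.

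The site itself also differed in form. AGATAA was present in 51.7% of the peak windows and 39.0% of the flanks, a difference of 12.8 points (9.42 to 16.1). With the flanks weighted to the GC content of the peaks it was 16.2 points (12.1 to 20.3). In windows with 1 site, AGATAA followed by G made up 20.7% of the sites in peaks and 6.74% in flanks, a ratio of 3.07. TGATAA followed by G made up 11.3% and 5.56%, a ratio of 2.03. Of the forms ending in AG, AGATAG followed by G made up 7.44% and 6.59% (difference 0.851 points, -1.20 to 2.996) and TGATAG followed by G made up 4.51% and 4.30% (0.209 points, -1.44 to 1.95). For the forms ending in AG both intervals thus included 0, and the difference between the forms was not tested. Composite peaks had AGATAA in 61.02% of windows, and the difference of the intronic GATA peaks from them was -9.28 points (-14.2 to -4.17).

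A second site was more frequent in the peaks than in the flanks. Windows with 2 or more sites made up 30.3% of the peaks (472 of 1556) and 22.1% of the flanks, a difference of 8.26 points (5.29 to 11.2). It was 16.1 points (12.9 to 19.3) with the flanks weighted to the GC content of the peaks, and 3.28 points (0.306 to 6.27) in windows of 100 bp. The highest number was 6 sites in a peak window and 17 in a flank window. Among windows with exactly 2 sites, the sites began within 20 bp of each other in 11.7% of 376 peak windows and 20% of 340 flank windows, a difference of -8.30 points (-13.7 to -2.96). The sites lay on the same strand in 57.7% of the peak windows (52.7 to 62.6%) and 56.5% of the flank windows. The median distance between their starts was 57.0 bp in peak windows and 52.0 bp in flank windows. Paired sites thus lay within 20 bp of each other less often in peaks than in flanks, with like orientation. This share was not weighted to GC content. Composite peaks had a second site more often, in 39.4% (difference -9.07 points, -14.1 to -4.18). A window with more sites has more chances to meet the composite rule, so this difference, like that in AGATAA above, is in part set by the rule and is given as a description.

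Sites within 25 bp of the midpoint of the peak were also counted. A site lay within 25 bp of it in 34.3% of the peak windows and 29.6% of the flanks, a difference of 4.69 points (1.54 to 7.84). In windows with 1 site the shares were 25.3% and 23.9%, a difference of 1.36 points (-2.02 to 4.79), an interval that included 0. With the flanks weighted to the GC content of the peaks, in classes of 5 points, the difference was 8.18 points (4.41 to 11.9), and in peaks of at least the median length of the whole list it was 8.54 points (3.99 to 13.05). The excess near the midpoint thus depended on how the windows were chosen and weighted. The file gives no summit, and the midpoint stands in for it.

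**Figure D1:**
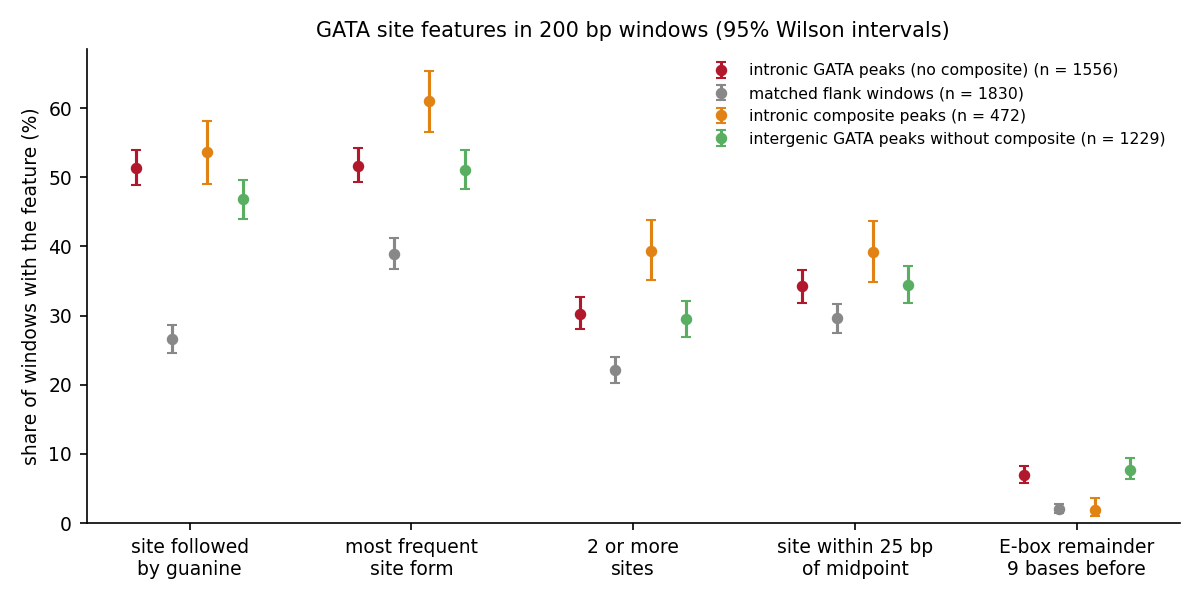
Share of 200 bp windows (vertical axis, percent) with each of 5 features of the GATA site, for intronic GATA peaks, matched flank windows, intronic composite peaks and intergenic GATA peaks without composite; the most frequent site form is AGATAA. Points are shares and bars are 95% Wilson intervals. The peaks stand 24.8 points above the flanks for a site followed by guanine. That is the one feature of the 5 whose difference from intergenic GATA peaks has an interval that excludes 0, without adjustment for the number of features.

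The rule removed composites with 7 or 8 bases between CTG and the GATA site, and a spacing of 9 bases was therefore examined. It was present in 108 intronic GATA peaks (6.94%, 5.78 to 8.31%) and in 2.02% of the flank windows (1.47 to 2.77%), a difference of 4.92 points (3.54 to 6.40). Intergenic GATA peaks had it in 7.73% (difference -0.789 points, -2.79 to 1.15). Composite peaks had it in 1.91%, in addition to their 7 or 8 base composite. The excess at 9 bases was known from the whole peak list before, so it is a description of these peaks and not independent support.

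To see whether 9 bases stood apart, CTG and its reverse complement CAG were counted at 0 to 20 bases before the site. The share at 9 bases with CTG was the highest of the 40 spacings in the peaks. The next with CTG was 4.69% (3.75 to 5.86%) at 6 bases, and the median of the other 18 was 3.73%. With CAG the highest was 5.98% (4.90 to 7.27%) directly before the site, whose interval overlapped that of CTG at 9 bases. As a ratio of peaks to flanks, CTG at 9 bases reached 3.43 and was passed by CAG at 19 bases with 3.64. At 32 of the 40 spacings the interval of the difference excluded 0, so most spacings were more frequent in peaks, among windows richer in G and C. At 10 bases with CTG the shares were 2.57% and 2.62%, and the interval included 0.

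For 8 of the 108, among the longest of these peaks, the element is shown to let it be read beside the composite. They were chosen after their values were seen. They are written 5′ to 3′ on the strand of the GATA site, in hg38, with CTG and the site in capitals.
TGM1, chr14:24256473-24256490, minus strand: CTGggttggttaTGATAA
CLEC16A, chr16:11105224-11105241, plus strand: CTGggtgtcactTGATAA
ABCB11, chr2:169012383-169012400, minus strand: CTGttttctttgTGATAA
RSAD2, chr2:6894107-6894124, minus strand: CTGgtttgtccaAGATAA
SLC22A4, chr5:132315748-132315765, minus strand: CTGgccccaggcTGATAG
BSDC1, chr1:32391262-32391279, plus strand: CTGactgagtaaAGATAA
TBXAS1, chr7:139916260-139916277, plus strand: CTGtgggaagggTGATAA
DYRK3, chr1:206659944-206659961, minus strand: CTGtgttgctggAGATAG

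The 9 bases in between had no fixed sequence in these examples, and all 4 forms of the site occurred. In 107 such windows with enough sequence at both sides, CTG was part of CANCTG, a whole E-box, in 14.95% (9.42 to 22.9%), as in 13.02% (10.2 to 16.4%) of 461 composite peaks. The site was followed by G in 48.6% (39.3 to 58.0%) and in 45.6% (41.1 to 50.1%) of the composite peaks. In the 35 flank windows with this spacing the shares were 2.86% (0.506 to 14.5%) and 17.1% (8.10 to 32.7%). Both shares thus lay close to those of the composite peaks. Among all intronic GATA peaks with 1 site at least 4 bases from the edge, G followed the site in 43.9%. That value lies within the interval of 39.3 to 58.0%, so the G was not particular to the spacing of 9 bases. The whole E-box was found in 1 of the 35 flank windows, and its interval overlapped that of the peaks. TGM1 encodes a transglutaminase of the skin barrier, ABCB11 the bile salt pump of the liver and SLC22A4 a carnitine and ergothioneine transporter.

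**Figure D2:**
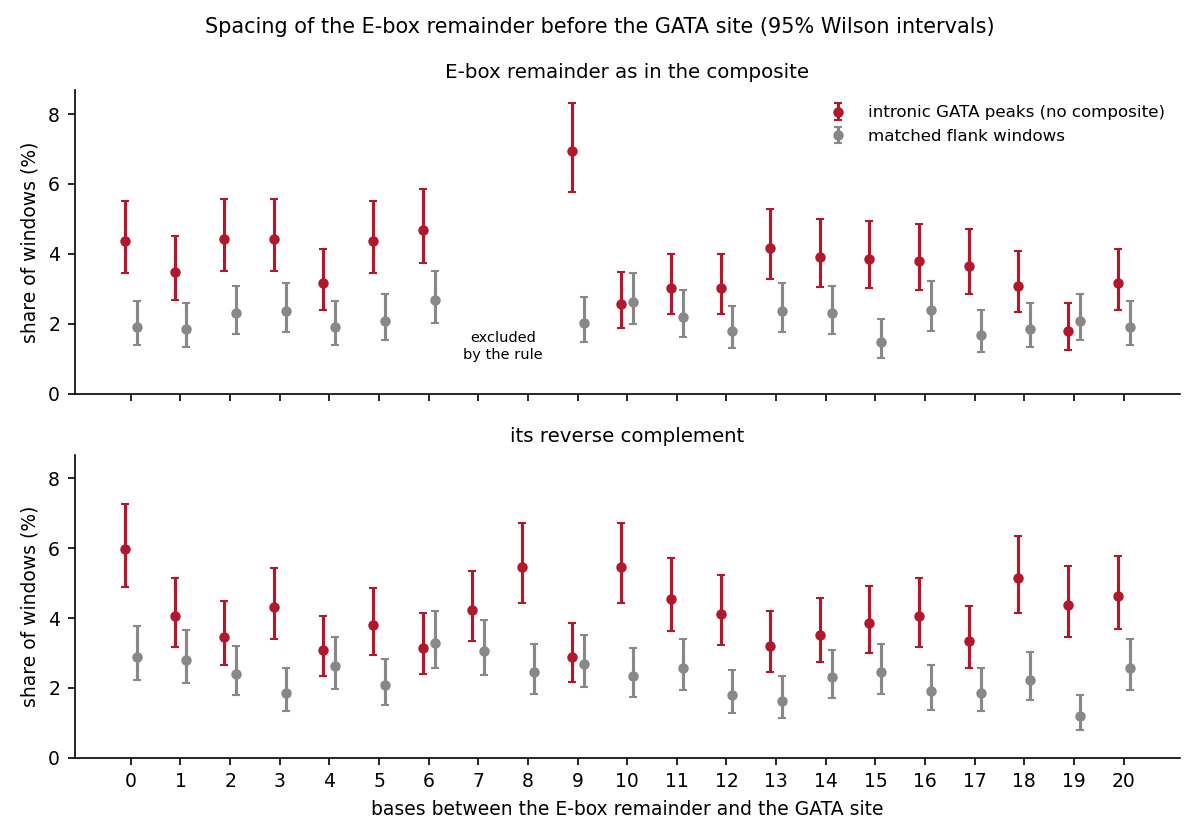
Share of windows (vertical axis, percent) with an E-box remainder (CTG or its reverse complement) at each number of bases before the GATA site (horizontal axis), in intronic GATA peaks and matched flank windows; above in the orientation of the composite, below reversed. Points are shares and bars are 95% Wilson intervals, and 7 and 8 bases in the composite orientation are empty by the rule. At 9 bases the peaks reach 6.94%, the highest value in either panel.

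Motifs of factors that may stand beside GATA were counted next, each on both strands. The TAL1-type E-box (CAGATG or CAGCTG) was present in 522 of the 1556 peaks (33.5%, 31.2 to 35.9%) and in 19.5% of the flanks, a difference of 14.1 points (11.1 to 17.1). AP-1 (TGACTCA or TGAGTCA), the motif of FOS and JUN, was present in 10.03% (8.63 to 11.6%) and 2.84%, a difference of 7.18 points (5.54 to 8.91). These were the leading 2 motifs of the 6 by difference. Both kept an interval above 0 when the flanks were weighted to the GC content of the peaks in classes of 5 points, at 8.65 points (4.84 to 12.5) for the E-box and 7.47 points (5.67 to 9.26) for AP-1.

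The remaining motifs did not keep it. RUNX (TGCGGT or TGTGGT) was present in 20.2% of peak windows and 14.6% of flank windows, KLF (CCACACCC, CCACGCCC, CCCCACCC or CCCCGCCC) in 11.4% and 4.86%, and ETS (AGGAAGT or CGGAAGT) in 6.23% and 4.21%. C/EBP (TTGCNNAA), the motif of the granulocyte factors CEBPA and CEBPE, was the one that was less frequent in peaks, at 7.13% and 11.97%, a difference of -4.83 points (-6.79 to -2.86). With the GC weighting the differences were 2.80 points for RUNX (-0.467 to 6.07), 2.43 for KLF (-0.147 to 5.02), 1.53 for ETS (-0.329 to 3.40) and -1.88 for C/EBP (-4.18 to 0.412), so each interval included 0. This weighting was chosen after seeing the data.

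Against distal intronic peaks without a GATA site 5 of the 6 motifs had differences whose interval included 0. The E-box differed by 1.95 points (-1.13 to 5.04), AP-1 by 0.692 (-1.24 to 2.67), RUNX by -0.854 (-3.50 to 1.83), ETS by 0.789 (-0.741 to 2.38) and C/EBP by 0.182 (-1.49 to 1.90). KLF was less frequent, at 11.4% compared with 14.4%, a difference of -3.01 points (-5.18 to -0.800). The windows without a GATA site held a median of 52.5% G and C, compared with 49.0%, and the part of GC content in the KLF difference was not tested. Composite peaks had the E-box in 41.1%, and the difference was -7.55 points (-12.6 to -2.59), though a CTG of the composite can itself be the end of CAGCTG.

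None of the 6 motifs was found in 571 peak windows (36.7%), compared with 53.8% of the flank windows, a difference of -17.1 points (-20.4 to -13.7). A single one was found in 653 (42.0%), 2 in 275 (17.7%) and 3 or more in 57 (3.66%). The window of the longest peak, in ZFPM1, was among those with none, though the rest of that peak was not searched.

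**Figure D3:**
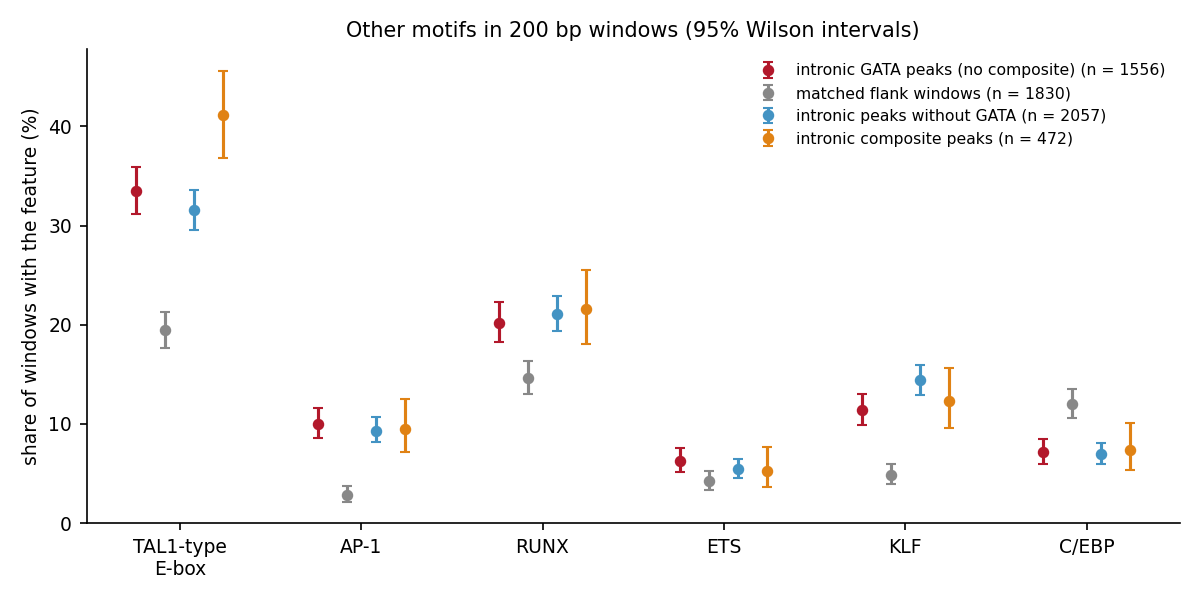
Share of 200 bp windows (vertical axis, percent) with the motif of each of 6 factor families, for intronic GATA peaks, matched flank windows, intronic peaks without a GATA site and intronic composite peaks. Points are shares and bars are 95% Wilson intervals. Peaks of all 3 kinds lie above the flanks for the E-box, AP-1, RUNX, KLF and ETS and below them for C/EBP. For ETS the bars overlap those of the flanks. With GC-weighted flanks, the intronic GATA peaks had difference intervals of -0.467 to 6.07 points for RUNX and -0.147 to 5.02 for KLF. The intervals were -0.329 to 3.40 for ETS and -4.18 to 0.412 for C/EBP.

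Peak length was the only value beside position. The intronic GATA peaks had a median length of 470.5 bp (457 to 490), with quartiles of 324.0 and 670.2 bp and a range from 229 to 4060 bp. Intronic peaks without a GATA site had a median of 410.0 bp (399 to 422), composite peaks 545.0 bp (526 to 571) and intergenic GATA peaks 458.0 bp (442 to 471). Hence the order of the medians ran from no GATA site in the window over GATA alone to composite. The Hodges-Lehmann shift, the median of all pairwise differences, was 29 bp (16 to 42) against peaks without a GATA site, -53 bp (-76 to -31) against composite peaks and 11 bp (-3 to 26) against intergenic GATA peaks. Among long peaks the first step of this order turned. Among peaks at or above the median length of the whole list the shift against peaks without a GATA site was -24 bp (-46 to -5). How length relates to signal cannot be told here, since the file has no height.

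Within the group, length varied with the site. Peaks with a site followed by G had a median of 496.5 bp, compared with 448.0 bp, a shift of 27 bp (7 to 49). Peaks with 2 or more sites had 512.0 bp, compared with 454.5 bp, a shift of 36 bp (13 to 60), and peaks with AGATAA had 491.0 bp, compared with 454.0 bp, a shift of 22 bp (3 to 43). For the CTG at 9 bases (17 bp, -22 to 59) and for each of the 6 other motifs the interval included 0. Longer peaks thus came with these 3 features, which overlap, since a window with more sites has more chances to hold AGATAA or a site followed by G. Their separate parts were not tested. In windows with 1 site at least 4 bases from the edge, the median was 471.5 bp for AGATAA, 454.0 bp for AGATAG, 438.5 bp for TGATAA and 484.0 bp for TGATAG.

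**Figure D4:**
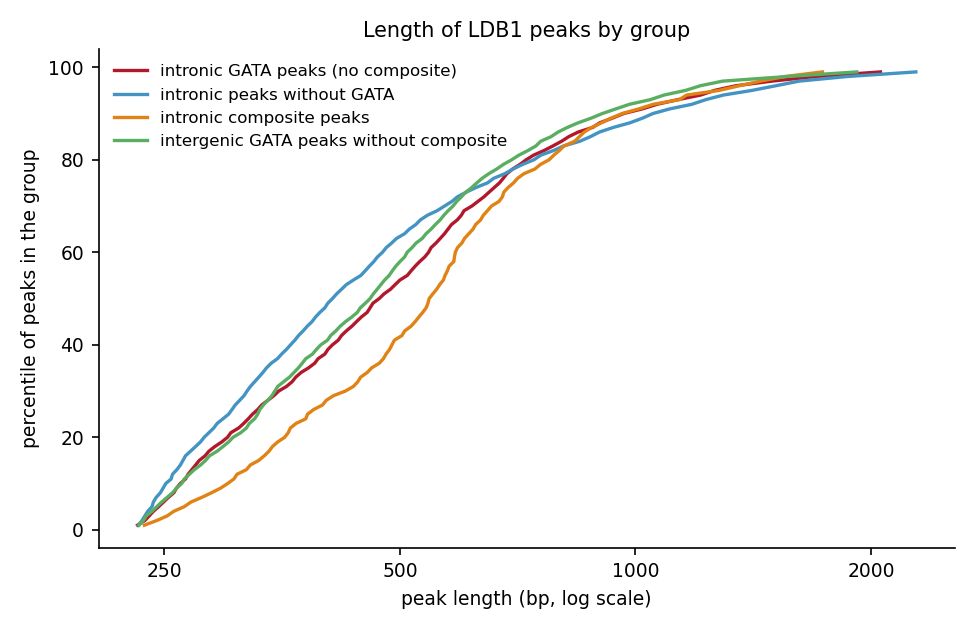
Percentile of peaks in each group (vertical axis) by peak length (horizontal axis, bp on a log scale) for intronic GATA peaks, intronic peaks without a GATA site, intronic composite peaks and intergenic GATA peaks without composite. Curves to the right are longer peaks. The intronic GATA peaks lie between the peaks without a GATA site and the composite peaks over most of the range, up to a length of 685.0 bp at percentile 77, above which the peaks without a GATA site are longer.

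The place in the gene was then examined. In 1325 peaks the midpoint lay in an intron of the canonical transcript of the host gene. The first intron held 480 of these (36.2%), the second 244 (18.4%), the third 116 (8.75%) and later introns 485 (36.6%). The first intron share was 34.8% for peaks without a GATA site, a difference of 1.40 points (-2.00 to 4.83). The median distance to the nearest TSS of any transcript was 7530 bp (7152 to 7935), compared with 7248 bp (6868 to 7841). The site lay on the coding strand of the host gene in 649 of 1302 windows with sites on 1 strand (49.8%, 47.1 to 52.6%). Intron number and strand thus gave no difference beyond the intervals.

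Neighbouring peaks did differ. Another peak lay within 5 kb of 35.0% of the intronic GATA peaks and 48.4% of the intronic peaks without a GATA site, a difference of -13.4 points (-16.6 to -10.2). The median distance to the nearest other peak was 13094 bp (10954 to 15177), compared with 5675 bp (4831 to 6522). The host gene had a peak within 1000 bp of one of its TSS in 26.4% and 33.3%, a difference of -6.89 points (-9.85 to -3.88). Hence the intronic GATA peaks stood alone more often. The host gene also held a composite peak in 21.02% and 24.6%, a difference of -3.58 points (-6.31 to -0.814). The interval included 0 with a 100 bp window (-2.21 points, -4.51 to 0.283) and over 3000 bp from any TSS (-3.13 points, -6.28 to 0.0708). It was -6.36 points (-10.3 to -2.31) in host genes of at least 100 kb. A composite peak lay within 20 kb of 9.90% and 14.7%, a difference of -4.78 points (-6.90 to -2.63).

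Repeated sequence was rarer in the group. A centre of 31 bases with a further copy in hg38 was found in 113 of the 1556 intronic GATA peaks (7.26%), compared with 12.4% of those without a GATA site, a difference of -5.18 points (-7.09 to -3.24). Reads from such copies may not be told apart, and this touches some red cell genes below.

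The peaks fell in 1215 of 17959 protein-coding genes with intron sequence in which a peak could meet the rule, a background of 6.77%. Of these genes 939 held 1 such peak, 174 held 2, 66 held 3 and 36 held 4 or more. A single host gene was found for 94.1% of the peaks, and the others lay in overlapping genes. Across all genes there were 1.43 peaks (1.36 to 1.50) per Mb of intron sequence open to the rule. By chromosome, the rate ran from 0.671 per Mb on chromosome 4 to 3.11 on chromosome 19, with 3.10 on chromosome 22 and 2.89 on chromosome 17, and no peak on chromosome Y.

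The 10 longest intronic GATA peaks lay in ZFPM1, RHCE, C5AR2, SMIM1, TANGO2, RHD, TTLL12, SCRT2, TXN2 and MYH9. The longest, 4060 bp at chr16:88496727-88500786, lay in intron 3 of ZFPM1 (ENSG00000179588.9), which encodes FOG1, the cofactor of GATA1. The peak of 2733 bp at chr1:25411992-25414724 lay in intron 1 of RHCE and that of 2501 bp at chr1:25278450-25280950 in intron 1 of RHD, the genes of the Rh blood group. The peak of 2657 bp at chr1:3773754-3776410 lay in intron 2 of SMIM1, the gene of the Vel blood group. The central 31 bases of the RHCE peak and of the 2501 bp RHD peak each have a copy in the other gene, so that reads of one may have been placed at the other. The peak of C5AR2, which encodes a C5a receptor, measured 2719 bp (chr19:47334710-47337428), and its midpoint was 1045 bp from a TSS.

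The other long peaks lay in genes of other functions. They measured 2573 bp in TANGO2 (chr22:20024320-20026892), 2415 bp in TTLL12 (chr22:43182467-43184881), 2386 bp in SCRT2 (chr20:671033-673418), 2360 bp in TXN2 (chr22:36478555-36480914) and 2357 bp in MYH9 (chr22:36367413-36369769). TXN2 encodes mitochondrial thioredoxin and MYH9 the nonmuscle myosin of platelets and other cells. Of the 10 peaks 5 had a site followed by G (RHCE, TANGO2, RHD, TTLL12 and SCRT2), and 0 had CTG at 9 bases.

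The genes with most intronic GATA peaks were not those with the longest. MTSS1, which encodes an actin-binding protein of the membrane, held 8 in 153 kb of open intron sequence, from 285 to 836 bp long. CLEC16A, a gene of autophagy, held 7 from 322 to 1482 bp, and 6 each lay in ST3GAL2, TBXAS1, MYO3B, GSE1 and RAD51B. The sialyltransferase gene ST3GAL2 had them in 48.2 kb (125 per Mb), and the DNA repair gene RAD51B in 855 kb (7.02 per Mb). Another 5 each lay in FPR3, CDCP1 and ST6GAL1, of which ST6GAL1 encodes another sialyltransferase. FPR1 and FPR3, genes of formyl peptide receptors, overlap in the annotation and shared 3 of the peaks. Of these 10 genes GSE1 held 2 distal intronic composite peaks, RAD51B held 1, and the other 8 held 0. GSE1 had 44 distal intronic peaks in all, of which 6 were intronic GATA peaks, while the 5 distal intronic peaks of ST6GAL1 were all intronic GATA peaks.

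Gene lists were set beside the background of 6.77% of genes and 1.43 peaks per Mb. The lists cover blood cell types, stem cell factors and the LDB1 complex, and also cytoskeleton and adhesion signalling genes and nerve cell synapse genes. They were written with earlier results of these data known, and counts are given as description. Peaks of 1 gene are not independent, so the intervals of the rates are too narrow.

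Among 39 red cell genes 13 (33.3%) held 21 intronic GATA peaks, or 14.4 per Mb (8.94 to 22.1), with a median length of 601.0 bp. The central 31 bases were unique in hg38 for 12 of the 21, and these alone gave 8.25 per Mb (4.26 to 14.4), compared with 1.32 per Mb (1.26 to 1.39) over all genes counted in the same way. The Rh genes led, with 4 peaks in RHD and 1 in RHCE. GYPC, which encodes glycophorin C, held peaks of 1312, 969 and 457 bp in intron 1. ALAS2, the first enzyme of heme synthesis in red cells, held 1 of 1309 bp in intron 8 (chrX:55014663-55015971), with AGATAG and a KLF motif. HEMGN held 2, of 791 and 691 bp, both in no intron of its canonical transcript. SLC25A37, the mitochondrial iron importer, held 1 of 656 bp.

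Related copies touch the Rh genes. The central 31 bases of the RHCE peak also occur in RHD, and those of 3 of the 4 RHD peaks also occur in RHCE. Those of the fourth RHD peak (1313 bp) occur 321 times in hg38. Which copy the reads came from is uncertain for these peaks.

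Among 25 platelet genes 8 (32.0%) held 19 peaks, or 8.38 per Mb (5.04 to 13.1), each with a unique centre. TBXAS1, the thromboxane synthase gene, held 6, and the longest (1195 bp at chr7:139915673-139916867, intron 4) had 3 GATA sites, an AP-1 motif and CTG at 9 bases. ARHGAP6 held 4 up to 1056 bp, and PEAR1, a receptor of platelet aggregation, held 2 of 840 and 673 bp. LTBP1 held 1 of 679 bp. ITGB3, the integrin of platelet adhesion, held 2 of 415 and 369 bp. The platelet peaks had a median length of 423.0 bp, below the 470.5 bp of all intronic GATA peaks.

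Genes of other myeloid cells were counted next. Among 27 mast cell, basophil and eosinophil genes there were 2 (7.41%), IL1RL1, the IL-33 receptor, with 463 bp in intron 1, and HDC, the histamine-forming enzyme, with 313 bp in intron 2. Among 26 granulocyte and monocyte genes there were 2 (7.69%), FPR1 with 3 peaks up to 1934 bp and CSF1R, the receptor of macrophage growth factor, with 308 bp. The peaks of FPR1 and CSF1R lay in no intron of the canonical transcripts. Both shares were near the background of 6.77%. For mast cell genes the rate was 2.60 per Mb (0.315 to 9.41), an interval that included the 1.43 of all genes. For granulocyte genes the rate was 10.8 per Mb (2.94 to 27.6), an interval above 1.43. The granulocyte rate rested on FPR1 and on a median of 6.78 kb of open intron sequence per gene.

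LMO2 and LDB1 are the partners the study is about, and GATA2, RUNX1, TAL1 and LYL1 are known to act around them. Among 22 genes of the LDB1 complex 6 (27.3%) held 10 peaks, or 2.99 per Mb (1.44 to 5.51), with a median length of 953.5 bp. The lower end of this interval, itself too narrow, stood barely above the 1.43 of all genes. RUNX1, described below, held 3 of the 10. Beside ZFPM1, whose second peak of 1400 bp lay in intron 1, LDB1 itself held 1 of 1253 bp in intron 1, with AGATAG and an E-box. SSBP3, a DNA-binding partner of LDB1, held 2 of 967 and 594 bp, the longer of them in no intron of the canonical transcript. LMO2 held 1 of 643 bp in intron 1 with 3 GATA sites, and GATA1 held 1 of 466 bp in intron 1 (chrX:48789506-48789971). GATA2, TAL1 and LYL1 held none under the rule.

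Stem cell factor genes overlap with that list. Among 25 of them 4 (16.0%) held 9 peaks, or 2.55 per Mb (1.17 to 4.85), an interval that included the 1.43 of all genes. RUNX1 held 3, of 1742 bp in intron 2 (chr21:34908452-34910193), 940 bp and 382 bp, and the longest had a single AGATAG followed by G. The 940 bp peak lay in the annotated gene body but in no intron of the canonical transcript. IKZF1, which encodes Ikaros, held 4 from 414 to 1391 bp, all in intron 3. ZEB2 held 1 of 352 bp with 3 GATA sites, also in no intron of its canonical transcript.

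Of 30 cytoskeleton and adhesion signalling genes 10 (33.3%) held 14 peaks, or 2.96 per Mb (1.62 to 4.96). These genes are long, with a median of 79.2 kb of open intron sequence compared with 21.9 kb for all genes, so the rate per Mb is the value to set against the background. The longest lay in MYH9 (2357 bp), in PXN, the gene of paxillin (2006 bp), and in DOCK2 (952 bp), a Rac activator of blood cells. TLN1 (talin) held 1 of 821 bp, RAC2 1 of 660 bp and VAV2 1 of 503 bp. Of 30 nerve cell synapse genes, which are longer still with a median of 1013 kb, 2 (6.67%) held a peak, ASTN2 and GABRG3 with 4 each. Their rate was 0.257 per Mb (0.111 to 0.507), the single list whose interval lay below 1.43.

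**Figure D5:**
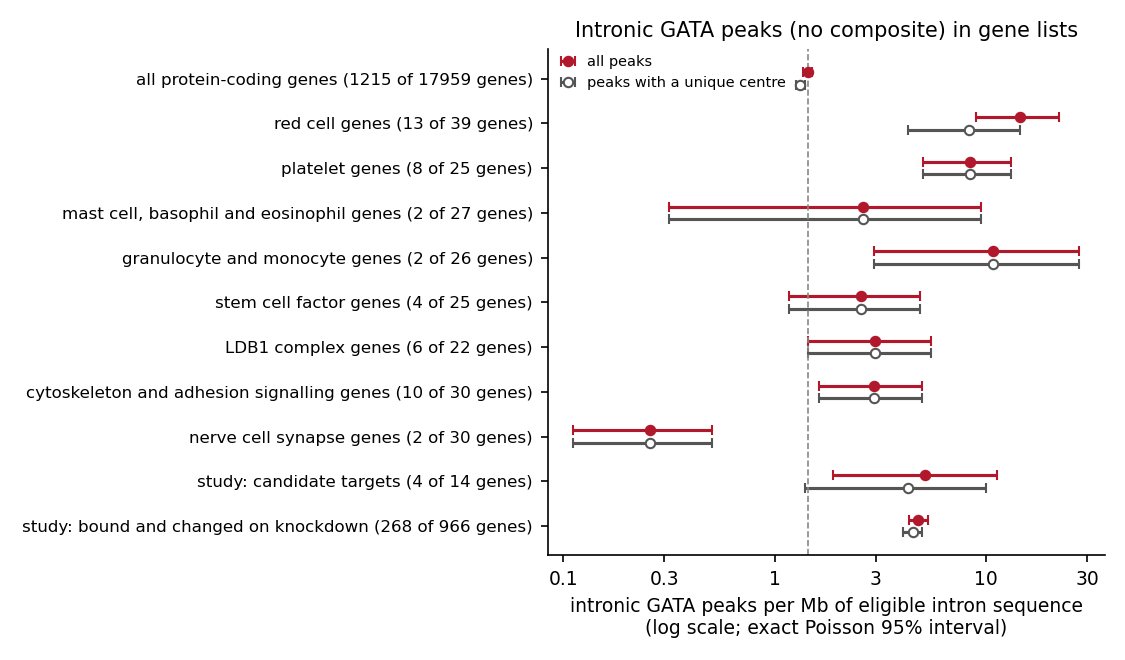
Intronic GATA peaks per Mb of intron sequence open to the rule (horizontal axis, log scale) for each gene list, with the number of genes that held one. Filled points are rates of all peaks and open points those of peaks with a unique centre, bars are exact Poisson 95% intervals, and the dashed line is the rate over all protein-coding genes, 1.43. Nerve cell synapse genes lie lowest at 0.257, and red cell genes fall from 14.4 to 8.25, beside 8.38 for platelet genes, when only unique centres are counted.

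Of the 14 candidate targets of the study that have open intron sequence, 4 (28.6%, 11.7 to 54.6%) held an intronic GATA peak. The rate over the 14 genes was 5.14 per Mb (1.88 to 11.2), and the background over all genes was 6.77% and 1.43 per Mb. FAM117A held 3, of 2066, 445 and 262 bp, ORAI2, a calcium channel gene, held 1 of 433 bp, ZEB2 held the peak above, and ZSWIM4 held 1 of 235 bp, close to the shortest of all at 229 bp. A longer list holds genes bound by LDB1 in ChIP-Seq and changed on its knockdown. Of its 966 genes with open intron sequence, 268 (27.7%, 25.01 to 30.7%) held an intronic GATA peak, at 4.78 per Mb (4.30 to 5.29). Open intron sequence in these 966 genes had a median of 37.4 kb, compared with 21.9 kb for all genes, which bears on the share of genes. Both lists drew on LDB1 data from the same line, so neither is independent evidence of binding.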

How the data were processed

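CUT&Tag libraries were made from NB4 cells, 1 for LDB1 and 1 for IgG. Per the paper's methods and the submitters' processing notes, the authors aligned reads to hg38 with Bowtie2 2.4.4 and called peaks with MACS3 3.0 in its paired-end mode under a limit on the q-value. Whether IgG was the control of the peak calling, and how duplicates, ambiguously aligned reads and problem regions were treated, is not given in the sources used here, and peaks in repeated sequence may depend on it. The deposited table lists where each peak starts and ends and its length, with no score or summit.

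Coordinates were taken as 1-based, because this gave the listed length for all 11046 peaks, and the last peak on chromosome X ended at 156003136 of 156040895 bp in hg38. Genes were taken from GENCODE release 44. Shares had Wilson intervals, share differences Newcombe intervals, shifts of length Hodges-Lehmann rank intervals, medians order-statistic intervals and rates exact Poisson intervals, all at 95%. A difference was called where its interval excluded 0, with no adjustment over the 39 share differences, 40 spacings, 32 bases around the site, 7 gene comparisons and 13 length comparisons. Motif and interval code was tested on simulated data. Computation used SciPy 1.17.1 and pandas 2.3.3 under Python 3.11.15. Sequence on chromosome 8 was not printed.

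The peaks and gene lists were chosen with earlier results of these data known. Named were the 10 longest peaks, the 10 genes with most peaks, up to 6 genes of each list by peak length, the candidate targets of the study and the factors it names, the peaks nearest the TSS limit, and the printed windows. Peaks with a CTG at 9 bases were chosen after their values were seen. Where genes overlapped, a peak counted for each. Listed names that matched no protein-coding gene with intron sequence open to the rule were left out. This kept 39 of 40 red cell, 25 of 30 platelet and 27 of 30 mast cell genes. It kept 26 of 30 granulocyte and 22 of 23 LDB1 complex genes, and 14 of 19 candidates. Of the 1101 names bound in ChIP-Seq and changed on knockdown, 965 were matched, and 966 gene entries were counted. Values of 2 single genes of these lists are not reported here. No depth is known, so intervals cover counting of peaks only.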

Additional observations from a re-analysis of the deposited data

How the results depend on the processing

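No paired analysis was possible because a single LDB1 library gave every value. Of 164 alternative values for 23 results, 140 kept their direction and side of the threshold, stayed within the main interval or, for the count of genes, were within 1.5 times the main count. The share of intronic GATA peaks among distal intronic peaks (38.1%) was 24.4% with a 100 bp window, 35.4% when a spacing of 9 was also left out and 40.4% in peaks of at least the median length. Among all peaks (14.1%) it was 9.02%, 13.1% and 14.95%, and 11.1% over 3000 bp from any TSS. The genes with such a peak fell from 1215 to 727 in the longer peaks and to 838 with a 100 bp window, 968 over 3000 bp from any TSS and 1021 with the canonical transcript in place of the gene body. With the longer peaks the length shift reversed to -24 bp, and against intergenic GATA peaks it was 11 bp with an interval that included 0. The site within 25 bp of the midpoint was weaker with a 100 bp window (1.97 points) and in windows with 1 site (1.36 points), and larger with GC-weighted flanks (8.18) and in the longer peaks (8.54). That of 2 or more sites ran from 3.28 points with a 100 bp window to 12.7 in the longer peaks and 16.1 with GC-weighted flanks. With a 100 bp window the differences were 7.80 points for AGATAA, 7.37 for the E-box and -2.17 for C/EBP, with intervals that excluded 0. With flanks weighted to GC content the differences were 2.80 points for RUNX, 1.53 for ETS, 2.43 for KLF and -1.88 for C/EBP, with intervals that included 0. The ETS difference was 1.59 points over 3000 bp from any TSS and 2.29 in the longer peaks, also with intervals that included 0. The difference for genes that also held a composite peak was -2.21 points with a 100 bp window and -3.13 over 3000 bp from any TSS, likewise. Against intronic peaks without GATA, AP-1 differed by 1.63 points with a 100 bp window, an interval above 0, and by -0.00146 with unique centres, and RUNX by 0.257 with a 100 bp window. The share on the coding strand less 50% was -0.154 points in the main setting and 0.114 points when only protein-coding exons were left out. The causes were not tested. The added alternatives (GC weighting, unique centres in the gene lists, windows with 1 site, host genes of at least 100 kb) were chosen after seeing the data. A spacing of 9 left out of the group gives no value for CTG at 9 bases.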
